A study of Rattus norvegicus with 127 samples.

Results

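Dmd, Utrn and Des encode dystrophin, utrophin and desmin, and were followed by name through all 18 groups of a study of pelvic floor muscle in the Sprague Dawley rat. They are 3 of the 134 probes of a custom nCounter panel, an assay that counts RNA molecules captured by barcoded probes. The tissue was the pubocaudalis, one of the pelvic floor muscles, taken uninjured or after SBI, a simulated birth injury. Part of the injured rats received saline or SKM, a hydrogel made from muscle matrix, injected immediately or with a delay whose length the labels do not give. Injury alone was sampled at days 1, 3, 7, 10, 31, 35 and 84, the immediate injections 3 and 7 days later, and the delayed injections 3 and 7 days and 8 weeks later. The labels give no age, parity or animal number. They do not say that each sample is a different rat, and a p-value here reflects only how much samples vary within groups, which may be technical. That spread was pooled for each probe over all 18 groups, and not taken from the compared groups alone. The 127 deposited samples held 3 pairs with identical counts in every probe (1 pair at SBI day 3, 2 pairs at SBI day 7). Since 2 such samples differ by less than sampling noise, each pair was averaged into 1 sample, and 124 were analysed.

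Dystrophin sits under the membrane of the muscle fibre and ties the actin cytoskeleton through a complex of membrane proteins to the matrix outside. Its loss makes the membrane of fibres fragile. Utrophin is its close relative. In adult fibres it is found mainly at the neuromuscular and myotendinous junctions, it spreads along the membrane of regenerating fibres, and cells other than muscle make it too. Desmin forms the intermediate filaments that link neighbouring myofibrils at the Z-discs and tie them to the membrane, and it is made early in the formation of new fibres. RNA was taken from whole muscle, so fewer cells of a type and less RNA per cell cannot be told apart in any value below.

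The starts of the 3 genes are shown as background, and their part in any value below was not tested. Each window spans an annotated start, lies mostly before it, comes from RefSeq on GRCr8 and is written 5′ to 3′ on the gene's own strand. Capitals mark matches to the E-box CANNTG, the site bound by myogenic basic helix-loop-helix factors, and to the CArG box, the site bound by serum response factor. Both motifs read the same way on both strands, and no 2 matches overlap. The Dmd window is the most upstream of 3 listed starts, at chrX:51205836-51206135 on the plus strand. The Utrn window lies at chr1:9044438-9044737 on the minus strand, and the Des window at chr9:84299376-84299675 on the plus strand.
Dmd: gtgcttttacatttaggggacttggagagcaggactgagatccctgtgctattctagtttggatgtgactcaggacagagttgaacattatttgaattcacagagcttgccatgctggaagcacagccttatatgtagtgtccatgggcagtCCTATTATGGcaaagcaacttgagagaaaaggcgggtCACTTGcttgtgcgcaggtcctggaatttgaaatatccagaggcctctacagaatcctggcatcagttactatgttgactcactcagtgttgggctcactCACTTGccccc
Utrn: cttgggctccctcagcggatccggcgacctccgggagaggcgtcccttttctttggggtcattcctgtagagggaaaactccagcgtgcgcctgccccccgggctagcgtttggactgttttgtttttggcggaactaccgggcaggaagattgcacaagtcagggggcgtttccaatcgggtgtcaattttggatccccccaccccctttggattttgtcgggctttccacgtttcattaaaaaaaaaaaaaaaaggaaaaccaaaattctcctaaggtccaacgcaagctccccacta
Des: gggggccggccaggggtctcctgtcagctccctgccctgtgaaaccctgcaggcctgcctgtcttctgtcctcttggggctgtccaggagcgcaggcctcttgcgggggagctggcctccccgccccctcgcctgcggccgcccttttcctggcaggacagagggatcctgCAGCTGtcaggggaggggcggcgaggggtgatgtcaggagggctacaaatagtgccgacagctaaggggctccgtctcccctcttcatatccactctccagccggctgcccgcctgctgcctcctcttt
The Dmd window held 1 CArG box, CCTATTATGG, which began 98 bases before the start, and 2 E-boxes, both CACTTG, of which one began 61 bases before the start and the other after it. The other two Dmd windows, which overlap each other, held neither motif but 3 copies of GGGCGG each. The Des window held 1 E-box, CAGCTG, which began 79 bases before the start, and 3 copies of GGGCGG counted on both strands. The Utrn window held none of these. Of 33469 such windows in the rat table, 72.1% held an E-box, 1.64% a CArG box and 33.1% GGGCGG, so the CArG box is the rare match among them. The position of the panel's probe within each transcript is not given in the sources used here. Which of the Dmd transcripts it captures is therefore unknown, and a match is a description of letters, not of a bound site.

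Values are the normalized signal the authors deposited, levels are log2(value + 1), and each level was also centred on the sample's panel median, because the scaling behind the deposited values is not described. Recovered counts summed to 366294 to 1824478 per sample, and the lowest count of any of the 3 genes in any sample was 147. The probe of Des carried 6.13% to 25.4% of a sample's total count (median 14.6%) and was the strongest of the panel in 40 of 124 samples. Dmd carried 0.0620% to 0.390% and Utrn 0.0290% to 0.124%. Probes differ in capture, so the level of one gene is not set against that of another here, and only changes are compared. Injury day 84 and both week 8 groups had totals of 629324 to 872262, within the 366294 to 1824478 found elsewhere. Their panel medians were 8.25 to 8.70 (log2), against 9.22 to 11.21 elsewhere. Of 10 genes listed as markers of skeletal muscle fibres, 6 were on the panel and all were counted in every sample (at least 397 counts). Of the smooth muscle markers none was on the panel.

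Injury was followed by lower Dmd, Utrn and Des at day 1 and day 3, and only Utrn was called higher from day 1 to day 3. Des moved less than Dmd and Utrn at day 1. The calls of Des at both days and of Utrn at day 3 were lost when certain single samples were left out. From day 7 to day 35 none of the 3 differed from uninjured muscle past the threshold, a limma adjusted p under 0.05 over the 134 probes. The 7 injury days share the same 3 uninjured samples, so a deviation of those samples enters each of these comparisons. The share of the 134 probes whose groups do not overlap is not given here, so overlap below only describes the samples of the 3 genes.

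The value of Dmd was 3921, 4988 and 4001 in the 3 uninjured samples and 976, 1453 and 483 in the 3 samples of day 1. Every sample of day 1 lay below every uninjured sample. Dmd was lower, with a log2 difference of -2.28 ± 0.42 (SE, 4.85-fold, n = 3 and 3), with an adjusted p of 3.11e-06 in limma's fit. The value of Utrn was 1188, 713 and 1658 in uninjured muscle and 269, 464 and 299 at day 1, again without overlap. Its difference was -1.74 ± 0.26 (3.34-fold, limma adjusted p = 2.59e-08). The value of Des was 366796, 360514 and 317167 in uninjured muscle and 209787, 250147 and 153304 at day 1. Its groups did not overlap either, but the difference was the smallest of the 3, at -0.79 ± 0.36 (1.73-fold, limma adjusted p = 0.0428). All 3 genes were thus called at day 1, where 64.9% of the panel was called. Centring, under which 66.4% of the panel was called, kept the calls of Dmd (-2.03 ± 0.44) and Utrn (-1.49 ± 0.21), while Des, at -0.55 ± 0.41, was no longer called (limma adjusted p = 0.231). The call of Des was also lost when 1 sample was left out, for 5 of the 6 samples: its difference was then -0.75 without uninjured replicate 1, -0.77 without uninjured replicate 2, -0.86 without uninjured replicate 3, -0.83 without day 1 replicate 1 and -0.60 without day 1 replicate 3 (limma adjusted p of 0.0531 to 0.191).

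At day 3 the value of Dmd ran from 450 to 2459 over 8 samples, with a median of 1430, and all 8 lay below the lowest uninjured sample. Its difference was -1.79 ± 0.35 (3.45-fold, n = 8 and 3, limma adjusted p = 5.27e-06). The value of Utrn ran from 423 to 1186 with a median of 840, and only 3 of the 8 samples lay below all uninjured samples. Its difference had narrowed to -0.51 ± 0.22 (1.42-fold, limma adjusted p = 0.0292). The value of Des ran from 139644 to 397616 with a median of 186625. Of its 8 samples 7 lay below and 1 above all uninjured samples, and the difference was -0.76 ± 0.30 (1.70-fold, limma adjusted p = 0.0168). All 3 were called, against 73.9% of the panel, and all 3 were called after centring (76.1% of the panel), with Dmd at -1.89 ± 0.37, Utrn at -0.61 ± 0.17 and Des at -0.86 ± 0.34. The result for Utrn rested on single samples. It was -0.23 without uninjured replicate 3 (limma adjusted p = 0.425) and -0.84 without uninjured replicate 2. It was -0.47 without uninjured replicate 1, -0.38 without day 3 replicate 2 and -0.46 without day 3 replicate 8, each past no threshold. Utrn was also not called at day 3 in a fit of these groups only (limma adjusted p = 0.214). Des lost its call without uninjured replicate 1 (-0.72) and without uninjured replicate 2 (-0.73), with limma adjusted p of 0.0586 and 0.0527.

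**Figure D1:**
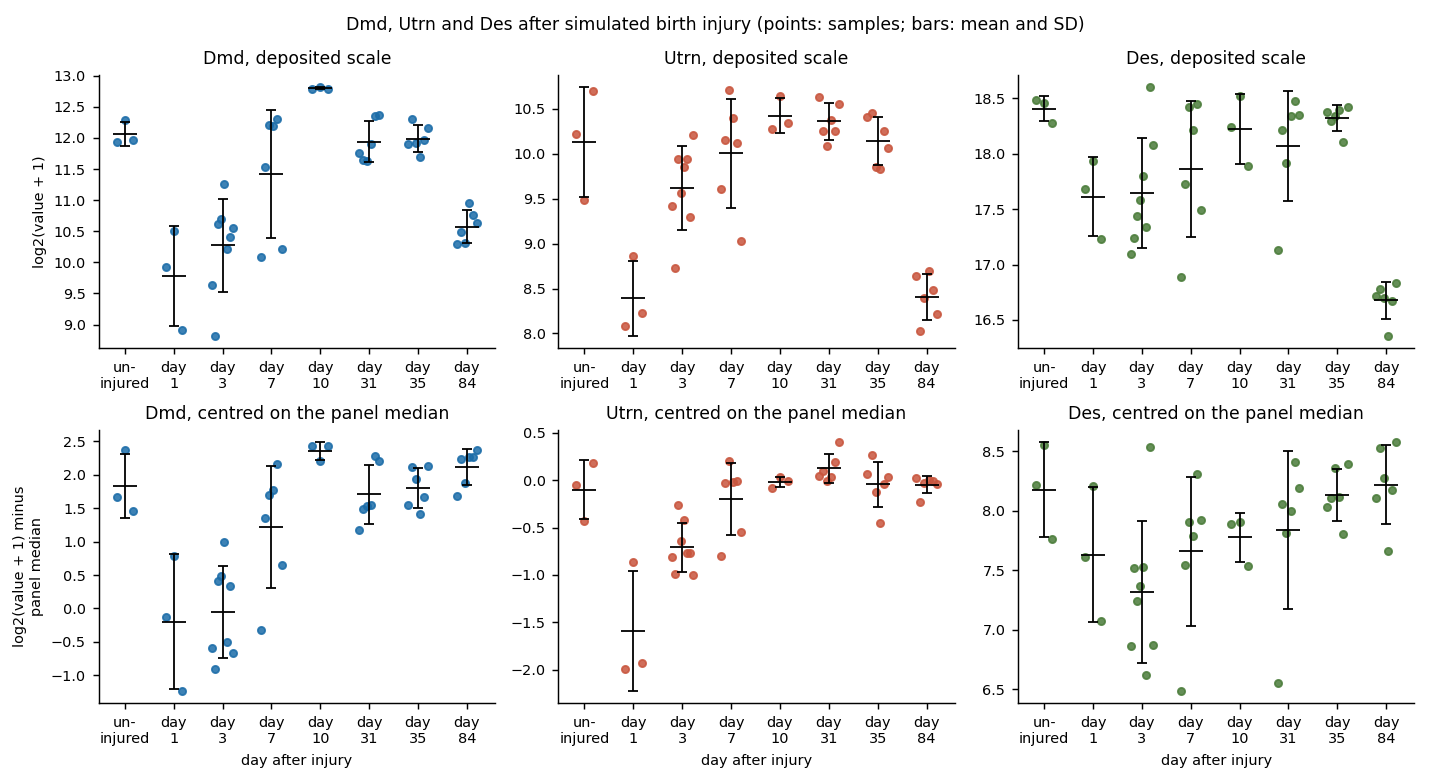
Level of Dmd, Utrn and Des in each sample of injury alone, as log2(value + 1) on the deposited scale (top) and centred on the panel median (bottom), with the group mean and SD as bars. Dmd stood lowest at days 1 and 3 on both scales, and Utrn did so after centring. On the deposited scale Utrn stood lowest at days 1 and 84. The low values of day 84 on that scale were absent after centring.

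From day 1 to day 3 Utrn rose by 1.23 ± 0.22 (2.35-fold, limma adjusted p = 9.62e-07), with 7 of 8 samples of day 3 above every sample of day 1. Dmd (0.49 ± 0.35, 95% interval -0.21 to 1.19) and Des (0.03 ± 0.30, 95% interval -0.55 to 0.62) were not called between these days, where 35.1% of the panel was. After centring Utrn kept its rise at 0.88 ± 0.17. The rises of the 3 genes were not tested against each other. From day 3 to day 7 Dmd rose by 1.15 ± 0.28 (2.22-fold, limma adjusted p = 0.000938, centred 1.27 ± 0.29), in a comparison where 35.1% of the panel was called and 45.5% after centring. In a fit of these groups only, Dmd at day 7 against day 3 had a limma adjusted p of 0.0894. That fit called far fewer probes of the panel than the main fit. Utrn differed by 0.38 ± 0.17 (limma adjusted p = 0.0706) on the deposited scale and was called after centring, at 0.51 ± 0.14 (limma adjusted p = 0.00237). Des differed by 0.22 ± 0.24 and was not called on either scale.

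At day 7 the samples of Dmd fell apart into low and high values. Of the 6 samples, replicates 1 and 6 had Dmd values of 1082 and 1191, replicate 2 had 2956, and replicates 3, 4 and 5 had 4749, 4688 and 5051, of which the last lay above every uninjured sample and the other two within their range. Des had its lowest values in the same replicates 1 and 6 (121138 and 184211), and Utrn as well (777 and 519). The summed value of the 6 fibre markers was lowest there too, at 92086 and 207547 against 299285 to 1249549 in the other 4. Its part in the result was not tested. Against uninjured muscle Dmd stood at -0.64 ± 0.37 (limma adjusted p = 0.125), Utrn at -0.13 ± 0.23 and Des at -0.54 ± 0.31. None of the 3 was called on either scale, while 57.5% of the panel was (58.2% after centring). These shares rest on the spread pooled over all groups. With the compared groups alone far fewer probes were called, as given in the last section.

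At day 10 Dmd had its highest level of all 18 groups on both scales. The 3 samples had values of 7092, 7226 and 7046, all above the highest uninjured sample and close to each other. Those of Utrn were 1239, 1599 and 1301, and those of Des 310410, 375868 and 243187, both overlapping with uninjured muscle. The difference of Dmd of 0.74 ± 0.42 (1.66-fold, 95% interval -0.11 to 1.58) was nevertheless not called (limma adjusted p = 0.218), nor were those of Utrn (0.29 ± 0.26) and Des (-0.19 ± 0.36), where 8.96% of the panel was called. After centring (3.73% of the panel called) the groups overlapped and Dmd stood at 0.52 ± 0.44. The level of Dmd had an SD of 0.02 at day 10, against 0.19 in uninjured muscle and 1.02 at day 7. The fit pools the spread of all groups, so the small SD at day 10 does not set its SE. At day 31 the value of Dmd ran from 3163 to 5258 (median 3643), of Utrn from 1086 to 1588 (median 1274) and of Des from 143657 to 364232 (median 318067). At day 35 they ran from 3307 to 5046 (median 3918), from 910 to 1401 (median 1143) and from 281437 to 350731 (median 335461). Every one of these ranges overlapped with uninjured muscle. At day 31 Dmd stood at -0.12 ± 0.37, Utrn at 0.23 ± 0.23 and Des at -0.34 ± 0.31, and at day 35 all 3 lay within 0.09 of uninjured muscle. No probe of the panel was called at either day (0% of 134), and 20 and 7 probes had an unadjusted p under 0.05. Between day 7 and day 31 none of the 3 was called, with Dmd at 0.52 ± 0.30, Utrn at 0.36 ± 0.18 and Des at 0.21 ± 0.25, where 41.8% of the panel was (35.8% after centring, again none of the 3). Dmd was called there without day 7 replicate 5 (0.69) and Utrn without day 7 replicate 3 (0.50). With the compared groups alone far fewer probes of the panel were called there than in the main fit.

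At day 84 all 3 genes stood low on the deposited scale and not on the centred one. The value of Dmd ran from 1256 to 1992 with a median of 1508, of Utrn from 259 to 415 with a median of 346, and of Des from 83942 to 117031 with a median of 107061. All 6 samples lay below every uninjured sample for each gene. The difference was -1.49 ± 0.37 for Dmd (limma adjusted p = 0.000167), -1.72 ± 0.23 for Utrn (limma adjusted p = 5.29e-11) and -1.73 ± 0.31 for Des (limma adjusted p = 3.95e-07). The median probe of the whole panel had moved as far, by -1.72, and 80.6% of the panel was called. After centring, the differences were 0.28 ± 0.38 for Dmd, 0.05 ± 0.18 for Utrn and 0.04 ± 0.35 for Des, none of them called, where 1.49% of the panel was. The 6 samples of day 84 had the low panel medians given above, at totals within the range of the other groups. Whether the shift belongs to the muscle or to the scaling cannot be told apart.

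**Figure D2:**
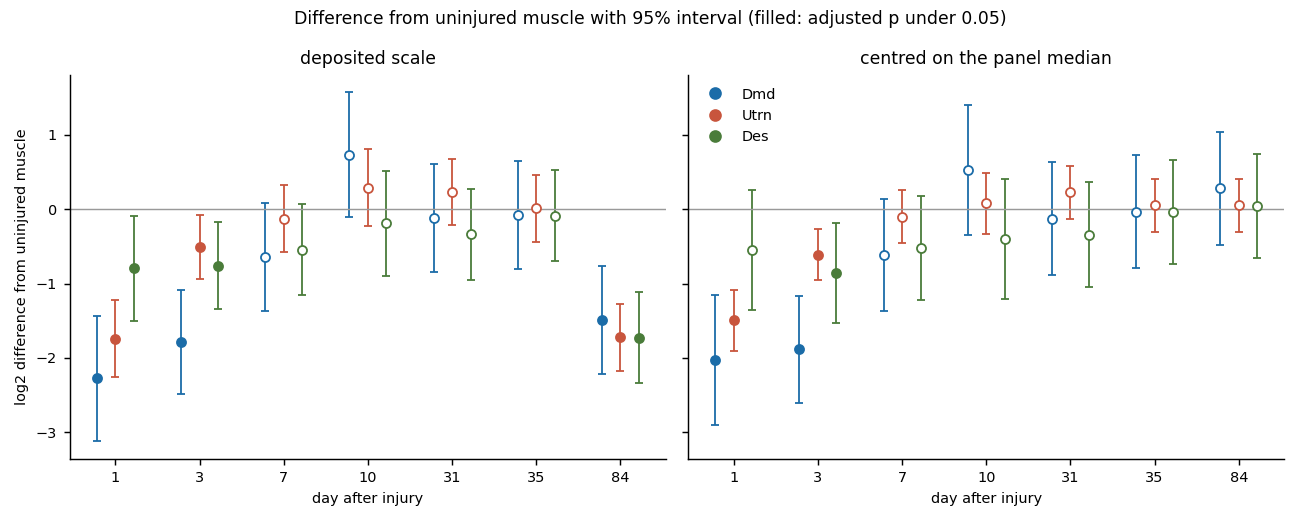
Log2 difference from uninjured muscle of Dmd, Utrn and Des at each day of injury alone, on the deposited scale (left) and after centring (right). Bars are 95% intervals of limma's fit and filled points have an adjusted p under 0.05, which on both scales holds for Dmd and Utrn at days 1 and 3 and for Des at day 3.

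The 3 genes were next set against each other within each sample, as the log2 level of Utrn or Des minus that of Dmd. Any factor common to a sample cancels in such a difference. Its size depends on the probes, so only its change is read. Des minus Dmd was 6.55, 6.18 and 6.31 in uninjured muscle and 7.75, 7.43 and 8.31 at day 1, with no overlap. Relative to Dmd, Des rose by 1.48 ± 0.29 (2.80-fold, limma adjusted p = 8.18e-06 over 133 probes), where 70.7% of the panel was called. At day 3 Des minus Dmd ran from 6.53 to 8.42, with 7 of 8 samples above all uninjured ones, and the rise was 1.03 ± 0.24 (limma adjusted p = 9.02e-05), where 84.2% was called. A fall of Dmd itself raises other probes relative to it. In level, the median probe differed from uninjured muscle by -0.66 at day 1 and 0.02 at day 3. It thus rose further relative to Dmd than Des did on both days. By day 7 Des minus Dmd was back at 6.44 ± 0.49 (SD, n = 6), with a difference of 0.10 ± 0.25 from uninjured muscle. At day 10 it was 5.45, 5.70 and 5.11, below every uninjured sample. Des was then lower relative to Dmd, with a difference of -0.92 ± 0.29 (1.90-fold, limma adjusted p = 0.0101), where 26.3% was called. That call was lost without uninjured replicate 1 (-0.82) and without day 10 replicate 3 (-0.77), with limma adjusted p of 0.0554 and 0.0956.

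In injury alone, Utrn relative to Dmd had its highest group mean at day 3, and Des relative to Dmd at day 1. This difference in timing was not tested. Utrn minus Dmd was -1.72, -2.80 and -1.27 in uninjured muscle, a spread wider than that of Des. At day 1 it was -1.85, -1.64 and -0.69, which overlapped with uninjured muscle, and the change of 0.54 ± 0.37 was not called (limma adjusted p = 0.193). At day 3 it ran from -1.41 to -0.09, with 7 of 8 samples above every uninjured sample. Relative to Dmd, Utrn rose by 1.28 ± 0.31 (2.42-fold, limma adjusted p = 0.000147), where 84.2% of the panel was called. The median probe rose further than Utrn relative to Dmd at that day. Without uninjured replicate 2, the sample with the lowest Utrn minus Dmd, the rise of Utrn at day 3 was 0.84 and was still called (limma adjusted p = 0.027). By day 7 the difference was 0.51 ± 0.32 (limma adjusted p = 0.183), where 47.4% of the panel was called, and at day 10 it was -0.44 ± 0.37. At days 31, 35 and 84 neither gene was called relative to Dmd (0%, 0% and 1.5% of the panel called), and the differences lay between -0.24 (Des at day 84) and 0.35 (Utrn at day 31). At day 84, where the deposited levels of Dmd, Utrn and Des were all low, Utrn stood at -0.23 ± 0.32 and Des at -0.24 ± 0.25 relative to Dmd.

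**Figure D3:**
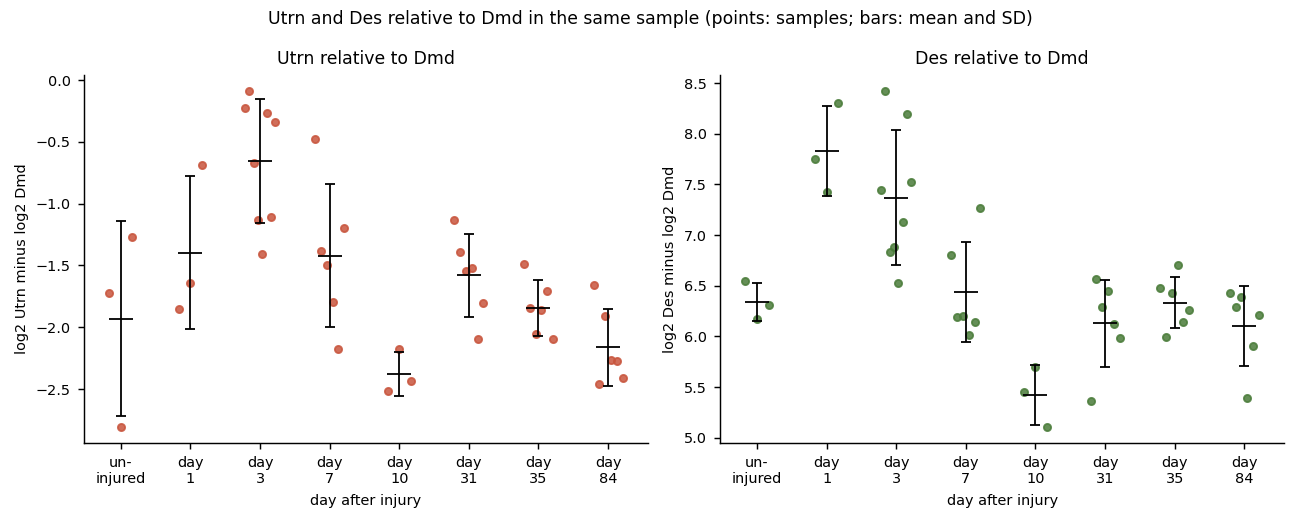
Log2 level of Utrn (left) and Des (right) minus that of Dmd in the same sample, for uninjured muscle and each day of injury alone, with group mean and SD as bars. Des minus Dmd was highest at day 1 and lowest at day 10, and Utrn minus Dmd was highest at day 3.

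Other genes of the fibre give the setting of these changes. Of a list of 28 genes of the dystrophin complex, the costamere and the intermediate filaments, Itga1 and Itgb1, which encode integrin subunits of matrix receptors, were the 2 found on the panel. Itga1 was lower at day 1 (-1.77 ± 0.24, limma adjusted p = 2.82e-09) and stood at -0.02 ± 0.20 at day 3, while Itgb1 was higher at day 1 (0.40 ± 0.17) and at day 3 (0.44 ± 0.14). No dystroglycan, sarcoglycan or syntrophin gene of the list was on the panel. Of 11 genes of the adult sarcomere, 7 were lower and none higher at day 1, a share near the 64.9% of the panel called in either direction, with a median of -2.05 against -0.66 over all probes. At day 3, 10 were lower and none higher, where 73.9% of the panel was called, with a median of -2.90 against 0.02 over all probes. The largest falls at day 3 were those of Mylk2, a myosin kinase of skeletal muscle (-3.70 ± 0.72), Tnnt3, fast troponin T (-3.36 ± 0.52), Myh1, a fast myosin heavy chain (-3.31 ± 0.59), and Mybpc1, a myosin-binding protein (-3.14 ± 0.51).

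The sarcomere genes were also set relative to Dmd. At day 1, 1 of the 11 was called higher (Tnnt1, slow troponin T, 1.35 ± 0.50) and none lower, where 70.7% of the panel was called relative to Dmd. At day 3, 7 were called lower and none higher, where 84.2% was called and the median was -1.11 against 1.81 over all probes. Those lower included Mylk2 (-1.91 ± 0.52), Tnnt3 (-1.57 ± 0.33), Myh1 (-1.52 ± 0.37) and Mybpc1 (-1.35 ± 0.29), so these genes had fallen further than Dmd at day 3. Des, at 1.03 above, moved the other way relative to Dmd, but by less than the median probe at 1.81. Actn2, the Z-disc protein alpha-actinin 2, was not called relative to Dmd, at 0.37 ± 0.28 at day 1 and -0.11 ± 0.23 at day 3. Of 7 genes of regenerating muscle, 1 was higher and 3 lower at day 1, and 4 were higher and 2 lower at day 3, against 64.9% and 73.9% of the panel called. They were led at day 3 by Myh3, embryonic myosin heavy chain (3.52 ± 0.88), Sln, sarcolipin (3.26 ± 0.58), Myog, myogenin (1.59 ± 0.39), and Myf5, a myogenic transcription factor (1.12 ± 0.30), with Myod1 (-1.71 ± 0.37) and Myf6 (-1.31 ± 0.35) lower. At day 10, where Dmd was at its highest level but not called, Myh3 stood at 6.60 ± 1.06 and Sln at 4.13 ± 0.70. There 8.96% of the panel was called. The other genes of this list are not given at that day, and a link to Dmd was not tested. Of the 4 genes of the neuromuscular junction, where utrophin is concentrated, 1 was lower at day 1 and 3 were higher at day 3, the latter a share near the 73.9% of the panel called, with Musk at 1.65 ± 0.53, Erbb2 at 1.55 ± 0.43 and Nrg1 at 1.40 ± 0.50.

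Markers of other cells moved with these days. The summed value of the 6 fibre markers was 1112930 to 1251630 in uninjured muscle, 188826 to 492848 at day 1 and 51292 to 475039 at day 3. That of 3 macrophage markers was 510 to 1069, 1926 to 7420 and 2085 to 14581 in the same groups, and that of 3 fibroblast markers 73275 to 114735, 6914 to 37549 and 192319 to 519950. The 2 endothelial markers summed to 953 to 1282, 700 to 906 and 1053 to 3033. The 2 neutrophil markers summed to 30.5 to 43.8, 137 to 1716 and 0.20 (both at the floor) to 1398, and the 4 lymphocyte markers to 427 to 520, 58.5 to 96.8 and 59.7 to 138. No marker of these lists was at 0 in all samples of a group. Across the 124 samples, as deviations from their group means on the deposited scale, the fibre marker sum had a Pearson r of 0.80 with Dmd and 0.86 with Des but 0.25 with Utrn. Utrn had an r of 0.60 with the fibroblast sum and 0.58 with the endothelial sum, where Dmd had 0.13 and -0.01 and Des -0.30 and -0.39. With the macrophage sum Dmd had an r of -0.339, Utrn 0.145 and Des -0.591. With the neutrophil sum they had -0.495, -0.096 and -0.54, and with the lymphocyte sum 0.36, 0.31 and 0.22. These values share each sample's scaling factor and are a description, and the part of the cell makeup in the changes of the 3 genes was not tested.

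Among the 3 genes themselves, Dmd and Des varied together between samples of a group, with an r of 0.75 between their deviations over 124 samples (0.78 after centring). Dmd and Utrn had an r of 0.50 (0.55 after centring), and Utrn and Des 0.10 (0.21 after centring). Over the 18 group means after centring, Dmd correlated with Utrn at 0.87 and with Des at 0.77, and Utrn with Des at 0.50. The 5 probes most like Dmd over those means were Actn2 (Pearson r = 0.97), Myh1 (0.97), Timp3 (0.95), Timp4 (0.93) and Angpt1 (0.92). The 5 most like Des were Rheb (0.97), Tcap (0.96), Nol3 (0.96), Jsrp1 (0.96) and Akt2 (0.96). For Utrn they were a probe left without a name (0.95), Itga1 (0.92), Timp2 (0.92), Timp4 (0.91) and Timp3 (0.88). The unnamed probe lies between Cxcr2 and Des in the row order. Alphabetically Dcn, decorin, would stand there, but the probe was not matched to that name by value. On the deposited scale 3, 1 and 3 of the 5 likest genes of Dmd, Des and Utrn were the same.

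**Figure D4:**
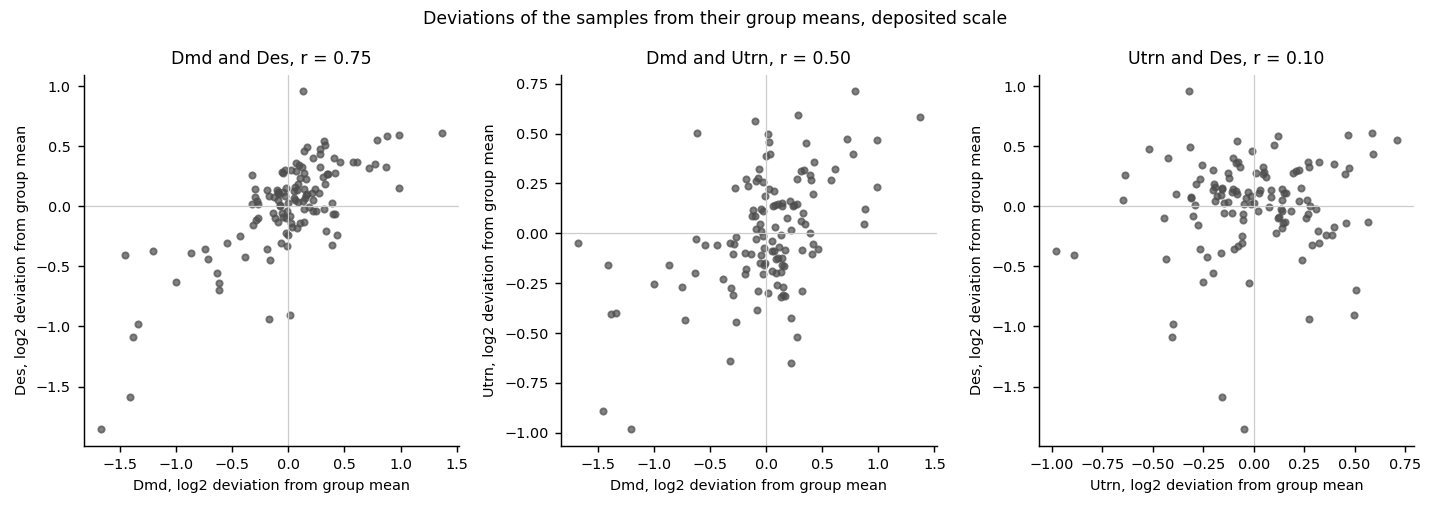
Deviation of each of the 124 samples from its group mean, in log2 units on the deposited scale, for each pair of Dmd, Utrn and Des. The points of Dmd and Des lie along a line (r = 0.75), those of Dmd and Utrn less so (0.50), and those of Utrn and Des scarcely (0.10).

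In order of level over the 18 groups, on the deposited scale, Dmd was highest at injury day 10 (12.80 ± 0.02), given as mean ± SD of the log2 level. Then came immediate saline day 7 (12.12 ± 0.56), uninjured muscle (12.06 ± 0.19), delayed saline day 3 (12.02 ± 0.18), injury day 35 (11.99 ± 0.21) and immediate SKM day 7 (11.98 ± 0.69). Below these stood injury day 31 (11.94 ± 0.34), delayed SKM day 3 (11.73 ± 0.38), delayed saline day 7 (11.47 ± 0.29), injury day 7 (11.42 ± 1.02), delayed SKM day 7 (11.42 ± 0.14) and immediate SKM day 3 (11.12 ± 0.75). The lowest were immediate saline day 3 (10.88 ± 0.73), injury day 84 (10.57 ± 0.26), delayed saline week 8 (10.53 ± 0.18), delayed SKM week 8 (10.51 ± 0.12), injury day 3 (10.27 ± 0.75) and injury day 1 (9.79 ± 0.80). Of the 17 steps between neighbours in this order, only that from injury day 10 to the next group exceeded the larger SD of the pair. After centring only that from injury day 7 down to immediate SKM day 3 did, and the groups of day 84 and week 8 moved up to stand directly behind injury day 10.

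Utrn was highest at injury day 10 (10.42 ± 0.20). Then came injury day 31 (10.36 ± 0.20), immediate saline day 7 (10.34 ± 0.14), immediate SKM day 3 (10.27 ± 0.24), immediate saline day 3 (10.25 ± 0.35) and immediate SKM day 7 (10.20 ± 0.18). Below these stood injury day 35 (10.14 ± 0.27), uninjured muscle (10.13 ± 0.61), delayed SKM day 3 (10.08 ± 0.35), injury day 7 (10.00 ± 0.60), delayed saline day 3 (9.96 ± 0.29) and delayed SKM day 7 (9.73 ± 0.27). The lowest were injury day 3 (9.62 ± 0.47), delayed saline day 7 (9.40 ± 0.32), delayed saline week 8 (8.49 ± 0.14), injury day 84 (8.41 ± 0.25), delayed SKM week 8 (8.40 ± 0.17) and injury day 1 (8.39 ± 0.42). The step from delayed saline day 7 down to the week 8 and day 84 groups was the only one beyond the larger SD. After centring, 2 steps were, from injury day 7 down to immediate SKM day 3 and from injury day 3 down to injury day 1. On that scale the lowest 4 groups were injury days 1 and 3 and both groups of day 3 after immediate injection.

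Des was highest in uninjured muscle (18.41 ± 0.11). Then came injury day 35 (18.32 ± 0.12), injury day 10 (18.22 ± 0.31), delayed saline day 3 (18.14 ± 0.11), injury day 31 (18.07 ± 0.50) and immediate SKM day 3 (18.02 ± 0.52). Below these stood immediate saline day 7 (17.98 ± 0.65), immediate saline day 3 (17.91 ± 0.41), immediate SKM day 7 (17.91 ± 0.77), injury day 7 (17.86 ± 0.61), delayed SKM day 3 (17.70 ± 0.37) and delayed saline day 7 (17.67 ± 0.27). The lowest were injury day 3 (17.64 ± 0.50), injury day 1 (17.61 ± 0.36), delayed SKM day 7 (17.39 ± 0.40), injury day 84 (16.68 ± 0.17), delayed saline week 8 (16.67 ± 0.10) and delayed SKM week 8 (16.63 ± 0.26). Its only step beyond the larger SD led from delayed SKM day 7 down to injury day 84. After centring no step did, and the 3 lowest groups were injury day 3 and the 2 groups of day 3 after immediate injection.

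SKM was then compared with saline. In none of the 5 comparisons was any of them called on either scale. At day 3 after immediate injection the value of Dmd ran from 1124 to 4863 with saline (median 1734, n = 9) and from 850 to 4050 with SKM (median 2358, n = 9), a wide overlap. The difference of Dmd was 0.23 ± 0.25 (95% interval -0.25 to 0.72), that of Utrn 0.01 ± 0.15 (-0.29 to 0.31) and that of Des 0.12 ± 0.21 (-0.29 to 0.52). At day 7 after immediate injection Dmd ran from 1666 to 6104 with saline (median 4903, n = 9) and from 1269 to 5348 with SKM (median 4653, n = 8). The differences were -0.13 ± 0.25 (-0.63 to 0.37) for Dmd, -0.14 ± 0.16 (-0.45 to 0.17) for Utrn and -0.07 ± 0.21 (-0.49 to 0.35) for Des. No probe was called at either time (0% of 134), and 8 and 7 probes had an unadjusted p under 0.05.

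In both arms of immediate injection the replicates numbered 7 of day 7 stood apart. The log2 level of Dmd was 10.70 in the saline sample, against 11.93 to 12.58 in the other 8, and 10.31 in the SKM sample, against 12.06 to 12.39 in the other 7. Des was low in the same samples, at 16.39 and 16.06, while Utrn, at 10.18 and 10.15, lay within its groups. Their fibre marker sums were 88308 and 73647, the lowest of their groups, and their macrophage sums of 16697 and 18602 were the highest. With these and 5 other samples that stand apart in their groups left out, the 3 genes were again not called in any comparison of SKM with saline.

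After delayed injection neither lower Des at day 3 nor higher Utrn at day 7 with SKM reached a call. At day 3 Des ran from 261923 to 328312 with saline (median 281842, n = 9) and from 136981 to 297369 with SKM (median 233890, n = 9), and 7 of the 9 SKM samples lay below every saline sample. The difference of Des was -0.44 ± 0.21 (95% interval -0.84 to -0.03, limma adjusted p = 0.161), where 6.72% of the panel was called (11.2% after centring). In a fit of these groups only, Des was called (-0.44, limma adjusted p = 0.0219). That fit called far more of the panel than the main fit, and both counts are given in the last section. Dmd stood at -0.29 ± 0.25 (-0.78 to 0.20) and Utrn at 0.11 ± 0.15 (-0.19 to 0.41). The fibre marker sum moved with Des, with a median of 921130 with saline and 612593 with SKM, and the macrophage sum had medians of 1372 and 4349. Their part in the result was not tested. At day 7 Utrn ran from 433 to 958 with saline (median 744, n = 10) and from 681 to 1196 with SKM (median 787, n = 9). Its difference was 0.33 ± 0.15 (0.04 to 0.62, limma adjusted p = 0.0914), where 14.9% of the panel was called. After centring (7.46% of the panel called) Utrn stood at 0.07 ± 0.12, and without saline replicate 10 it was called at 0.38 (limma adjusted p = 0.0478). Des stood at -0.28 ± 0.20 (-0.68 to 0.11) and, after centring, at -0.54 ± 0.23 (-0.99 to -0.08, limma adjusted p = 0.0892). Dmd stood at -0.05 ± 0.24 (-0.52 to 0.42) and, after centring, at -0.30 ± 0.25 (-0.80 to 0.19). The fibre marker sum had medians of 767841 and 587963 at day 7, and the macrophage sum 565 and 2027.

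At week 8 all 3 differences were small, with Dmd at -0.02 ± 0.32 (95% interval -0.65 to 0.60), Utrn at -0.09 ± 0.19 (-0.47 to 0.30) and Des at -0.04 ± 0.26 (-0.56 to 0.49). No probe was called there (0%), and 2 had an unadjusted p under 0.05. The effect of SKM was also compared between delayed and immediate injection. At day 3 the difference in effect was -0.55 ± 0.29 for Des (limma adjusted p = 0.196), -0.52 ± 0.35 for Dmd (limma adjusted p = 0.25) and 0.10 ± 0.21 for Utrn. At day 7 it was -0.21 ± 0.29 for Des, 0.08 ± 0.35 for Dmd and 0.47 ± 0.21 for Utrn (limma adjusted p = 0.137). None was called, where 0% and 1.49% of the panel was. After centring none was called either (0% at both days), with Utrn at day 7 at 0.08 ± 0.17 and Des at -0.59 ± 0.33. Relative to Dmd, neither Utrn nor Des was called in any of the 5 comparisons of SKM with saline, where 2.26% of the panel was called at day 3 after delayed injection and 0% in the other 4. The widest of these was Utrn at day 3 after delayed injection, at 0.40 ± 0.22 (limma adjusted p = 0.233). A difference that misses the threshold does not show that SKM and saline act alike, and the intervals above are on the deposited scale except where centring is named.

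**Figure D5:**
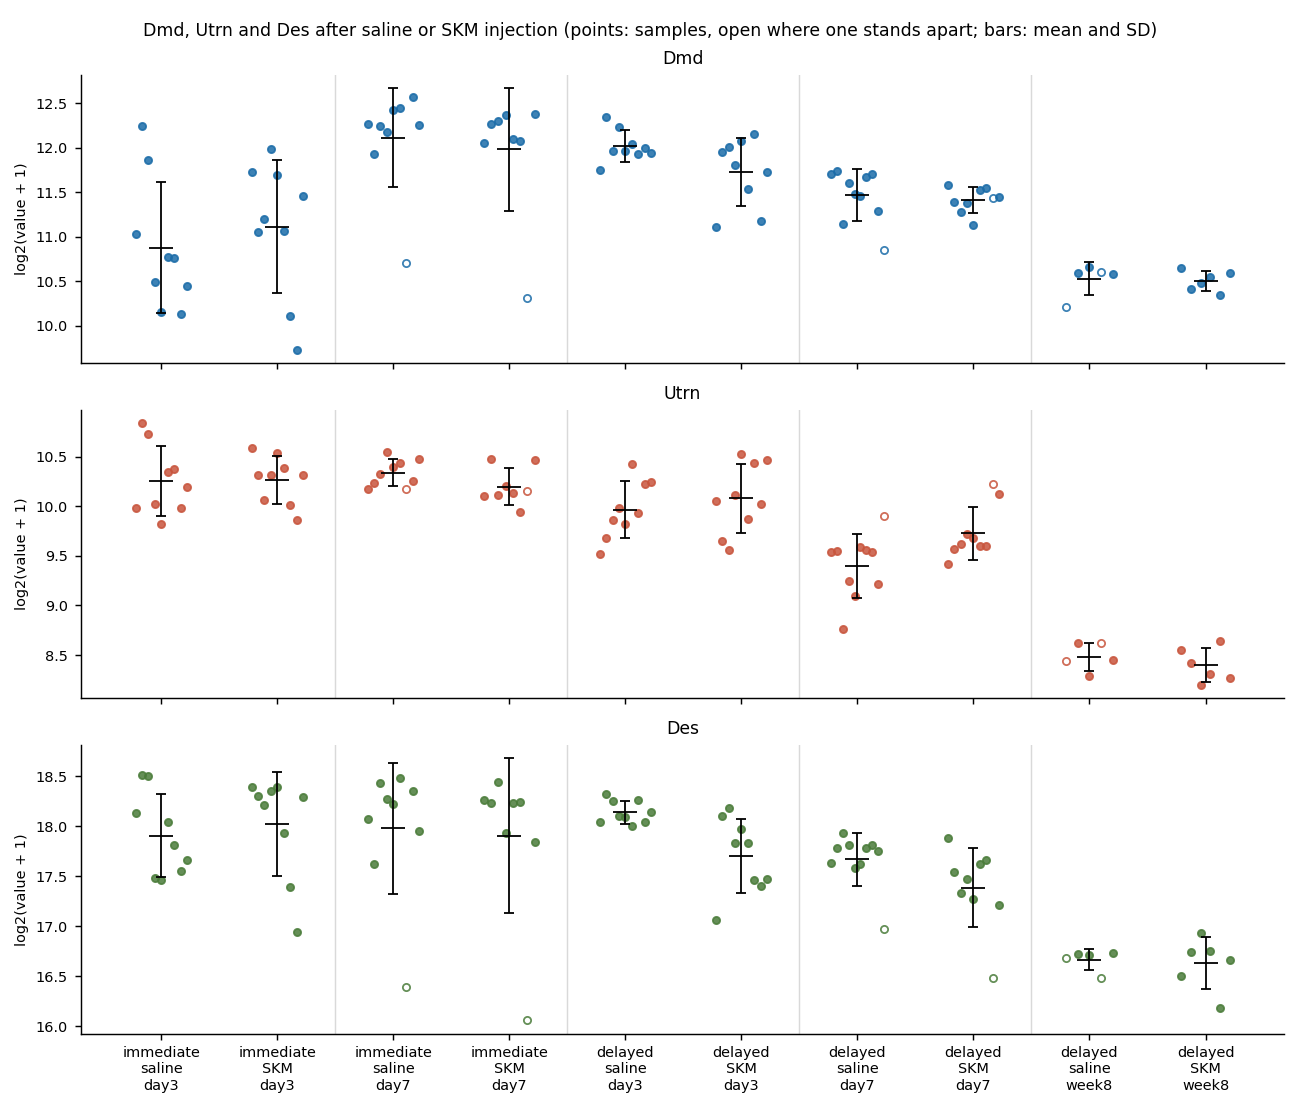
Level of Dmd, Utrn and Des as log2(value + 1) in each sample after immediate or delayed injection of saline or SKM, with group mean and SD as bars and open points for samples that stand apart. Saline and SKM overlapped at every time, and the replicates numbered 7 of immediate injection at day 7 were low for Dmd and Des and not for Utrn.

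Saline was last set against injury alone at a matched or later day. The labels do not give the delay, so injury days 31, 35 and 84 were set beside days 3 and 7 and week 8 of delayed injection. At day 3 after immediate injection Dmd was higher with saline than with injury alone by 0.61 ± 0.25 (limma adjusted p = 0.0415) and Utrn by 0.63 ± 0.16 (limma adjusted p = 0.00049), where 44.8% of the panel was called. The median probe stood 0.55 higher as well. After centring, Dmd (-0.02 ± 0.26) and Utrn (0.01 ± 0.12) were not called, where 0.746% of the panel was called. Des stood at 0.26 ± 0.21 and was not called. The call of Dmd was lost without SBI day 3 replicates 1 (0.52), 2 (0.40) or 6 (0.60), or saline replicates 1 (0.59), 2 (0.43) or 3 (0.48), left out one at a time. It did not hold either with only these groups fitted (limma adjusted p = 0.166).

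At day 7 after delayed injection of saline, Utrn was lower than at injury day 35, with a difference of -0.74 ± 0.17 (limma adjusted p = 8.59e-05), and so was Des, at -0.65 ± 0.23 (limma adjusted p = 0.0108), where 54.5% of the panel was called. The groups of Des did not overlap, and 9 of 10 saline samples lay below all injury samples for Utrn. Dmd stood at -0.52 ± 0.27 (limma adjusted p = 0.0883). Here too the median probe had moved as far, by -0.70, and after centring Utrn (-0.06 ± 0.13), Des (0.03 ± 0.26) and Dmd (0.16 ± 0.28) were not called, where 1.49% of the panel was. In the 3 remaining comparisons of saline with injury alone none of the 3 genes was called, with 2.99%, 2.24% and 0% of the panel called. The difference of Dmd at day 7 after immediate injection, at 0.69 ± 0.27 (limma adjusted p = 0.178), was called without saline replicate 7 (0.87), without SBI day 7 replicate 3 (0.85) and without SBI day 7 replicate 5 (0.87). At day 3 after delayed injection Utrn stood at -0.40 ± 0.17 (limma adjusted p = 0.258), and at week 8 all 3 genes lay within 0.08 of injury day 84.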

How the data were processed

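Members and gene lists were chosen with earlier results of these data known. The deposited table holds the authors' normalized signal of 134 unnamed probes; its scaling is not described in the sources used here. Within a sample the values are whole multiples of 1 step (16829 values, 100% whole within 0.05 of a count), from which counts were recovered for depth; 189 values stood at the floor, taken as 0 counts. Other values in the deposited workbook (unit other: the authors' log2 fold changes of 8 comparisons for 136 names) were used only to name probes. Differences of group means were matched to them, which named 132 probes (131 best both ways, median difference 0.0028) and left 2 unnamed. The matching rule was revised after looking at its output, alphabetical order included, so that order is no independent check; Dmd, Utrn and Des kept the same probes throughout.

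Levels are log2(value + 1). limma 3.58.1 in R 4.3.3 fitted 1 mean per group over 124 samples and all probes, with Benjamini-Hochberg adjustment over 134 probes per comparison (133 relative to Dmd) and a threshold of 0.05. Main fits use the deposited scale. Errors after ± are SE for differences and SD for levels. The fit was tested on simulated data in which each gene had the same spread in all groups. Such data cannot show how the fit behaves where the spread differs between groups, as it does for Dmd. Named genes are the 3 members, the listed genes on the panel, and the 5 probes most like each member by Pearson r of centred group means. Alternatives were centring, a pseudocount of 10, probes with a mean of at least 50, the compared groups alone, a replicate block, identical samples kept apart, and each sample left out; precision weights on recovered counts (voom) and leaving out 7 samples that stand apart were added after seeing the data. Promoter windows are from RefSeq, GRCr8; all 3 genes matched by symbol.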

Additional observations from a re-analysis of the deposited data

Results flagged for a closer look

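Of 75 checks of single samples within groups of 5 to 10, 13 found a sample far from the others of its group, where chance gives about 1 in 20 for a single check. The 13 came from 7 samples, some of them flagged more than once. The checks are therefore not independent, and their number cannot be set against chance. After immediate injection, day 7, the saline replicate 7 stood at 10.7 for the level of Dmd (others 11.93 to 12.58), at 16.39 for Des (others 17.63 to 18.49) and at -0.53 for Utrn minus Dmd (others -2.32 to -1.64). The SKM replicate 7 stood at 10.31 for Dmd (others 12.06 to 12.39), at 16.06 for Des (others 17.85 to 18.45) and at -0.16 for Utrn minus Dmd (others -2.19 to -1.79). At day 7 after delayed injection, saline replicate 10 stood at 16.97 for Des (others 17.58 to 17.93) and at -0.94 for Utrn minus Dmd (others -2.38 to -1.87). Its fibre marker sum of 448048 was the lowest of its group. SKM replicate 8 of the same day stood at 16.48 for Des (others 17.21 to 17.88) and at 5.05 for Des minus Dmd (others 5.76 to 6.30), with the lowest fibre sum, 338683, and the highest macrophage sum, 10286, of its group. At week 8, saline replicate 1 stood at 10.21 for Dmd (others 10.58 to 10.66) and saline replicate 4 at 16.49 for Des (others 16.69 to 16.73). At injury day 84, replicate 4 stood at 16.36 for Des (others 16.67 to 16.84). The part of the marker sums in these values was not tested.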

How the results depend on the processing

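Of the 90 tested differences, a pseudocount of 10 and the filter on low probes changed no call or direction. After centring, the differences at day 84 turned to 0.28 for Dmd, 0.0512 for Utrn and 0.0425 for Des; Dmd with immediate saline at day 3 turned to -0.0207 and Des with delayed saline at day 7 to 0.0260. Utrn in the same saline comparisons lost its call (0.0066 and -0.0639), as did Des at day 1 (-0.55), and Utrn from day 3 to day 7 gained one (0.51). Panel counts called fell with centring from 108 to 2 at day 84, from 60 to 1 for immediate saline at day 3, from 73 to 2 for delayed saline at day 7 and from 12 to 5 at day 10. With the compared groups alone, calls were lost for Utrn at day 3 (-0.51), Dmd from day 3 to day 7 (1.15) and Dmd with immediate saline at day 3 (0.61), and gained for Des with delayed SKM at day 3 (-0.44) and Dmd with delayed saline at day 7 (-0.52). There the panel counts were 2 against 77 at day 7, 4 against 47 from day 3 to day 7, 7 against 56 from day 7 to day 31 and 48 against 9 for delayed SKM at day 3. In no comparison was every same-number correlation over 0.1, but the highest was 0.957 (immediate SKM against immediate saline, day 7). These values cannot tell whether samples are paired by their replicate numbers. With them as a block, calls were lost for Des at day 1 (-0.79), Utrn from day 1 to day 3 (0.97), Dmd from day 3 to day 7 (1.22), immediate saline at day 3 (Dmd 0.62, Utrn 0.62) and Des relative to Dmd at days 1, 3 and 10 (1.48, 1.22, -0.92). Calls were gained for Des with delayed SKM at day 3 (-0.44), Dmd with delayed saline at day 7 (-0.46) and Utrn relative to Dmd with delayed SKM at day 7 (0.50). With voom weights Des at day 1 lost its call (-0.79). With identical samples kept apart, Utrn from day 7 to day 31 (0.46) and Dmd with immediate saline at day 7 (0.73) gained one. Without the samples that stand apart, Des at day 7 (-0.54) and Dmd with immediate saline at day 7 (0.87) did. The cause of these changes was not tested.

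Leaving out 1 sample changed the call of 10 differences. They ranged from -1.06 to -0.77 for Des relative to Dmd at day 10, from -0.95 to -0.60 for Des at day 1, from -0.90 to -0.68 for Des at day 3, from -0.84 to -0.23 for Utrn at day 3, from 0.24 to 0.58 for Utrn from day 3 to day 7, from 0.25 to 0.69 for Dmd and 0.16 to 0.50 for Utrn from day 7 to day 31, from 0.40 to 0.75 for Dmd with immediate saline at day 3, from 0.42 to 0.87 at day 7, and from 0.26 to 0.38 for Utrn with delayed SKM at day 7. On the deposited scale, 3, 3 and 1 of the likest genes of Dmd, Utrn and Des were shared. The planned count test was not run, because the deposited values are not counts. Groups of 3 samples limit the precision at days 1 and 10 and of every comparison with uninjured muscle.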
